A study of Mus musculus with 8 samples.

Results

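The 35 imprinted genes described here were taken from a list of known imprinted genes and looked up in a RefSeq gene table, which held all 35 among its 47042 genes on autosomes. Of these, 32 are protein-coding and 3, H19, Meg3 and Airn, make long non-coding RNAs. They lie in 14 clusters or single loci. They were read in cultured mouse bone-marrow stroma, namely mesenchymal stem and progenitor cells (MSPCs) at passages 5 to 10 on a C57BL/6 background, either wild type or Asxl1-/-. Chromatin immunoprecipitation with sequencing mapped H3K27me3, H3K4me3 and H3K4me2 in both genotypes, and the chromatin regulator ASXL1 in wild type. Each of the 7 combinations is 1 library given as a list of islands, the stretches of enriched signal. Without replicates, differences below carry no p-value and describe these libraries only. The labels do not say which part of Asxl1 was removed, how many animals gave cells, or whether the cultures were pooled.

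An imprinted gene is read from only the maternal or only the paternal copy, because the parents leave different DNA methylation at control regions in egg and sperm. The active copy usually carries H3K4 methylation at its promoter. The silent copy can carry DNA methylation or H3K27me3, a repressive mark set by Polycomb proteins. Many imprinted genes set growth before birth, and several, such as Dlk1, act in stromal and fat precursor cells. The islands come from populations of cells of 1 inbred background and do not tell the copies apart.

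A gene counted as marked when an island lay within 1 kb of either end of the gene. A mark is called kept where both genotypes had such an island, lost where only wild type did, and gained where only Asxl1-/- did. As a check of the cell type, all 10 genes chosen as markers of mesenchymal stroma had H3K4me3 in both genotypes, against 2 of 7 blood and 1 of 5 endothelial markers. Between 15276 and 36046 islands were listed per library on the autosomes and the X chromosome. Whole chromosomes differed between the genotypes in covered length, so the ratio of Asxl1-/- over wild type around a gene is given where it bears on a change.

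In wild type, 24 of the 35 genes (68.6%) had H3K4me2 and 24 had H3K4me3, against 64.7% and 59.8% of the 20665 protein-coding genes on autosomes. H3K27me3 was at 15 (42.9%, interval 26.3 to 60.6), against 27.4%, which lies within the interval. ASXL1 was at 15 (42.9%), against 51.4%. In Asxl1-/-, 22 genes had H3K4me2 (62.9%, background 65.7%) and 18 had H3K4me3 (51.4%, background 59.6%). H3K27me3 was then at 17 (48.6%, background 24.4%). Intervals here and below are exact Clopper-Pearson ones at 95% for counting error alone, and neighbouring genes can share an island. Ndn, Snrpn and Zim1 had none of the 3 marks at either end in either genotype.

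**Figure D1:**
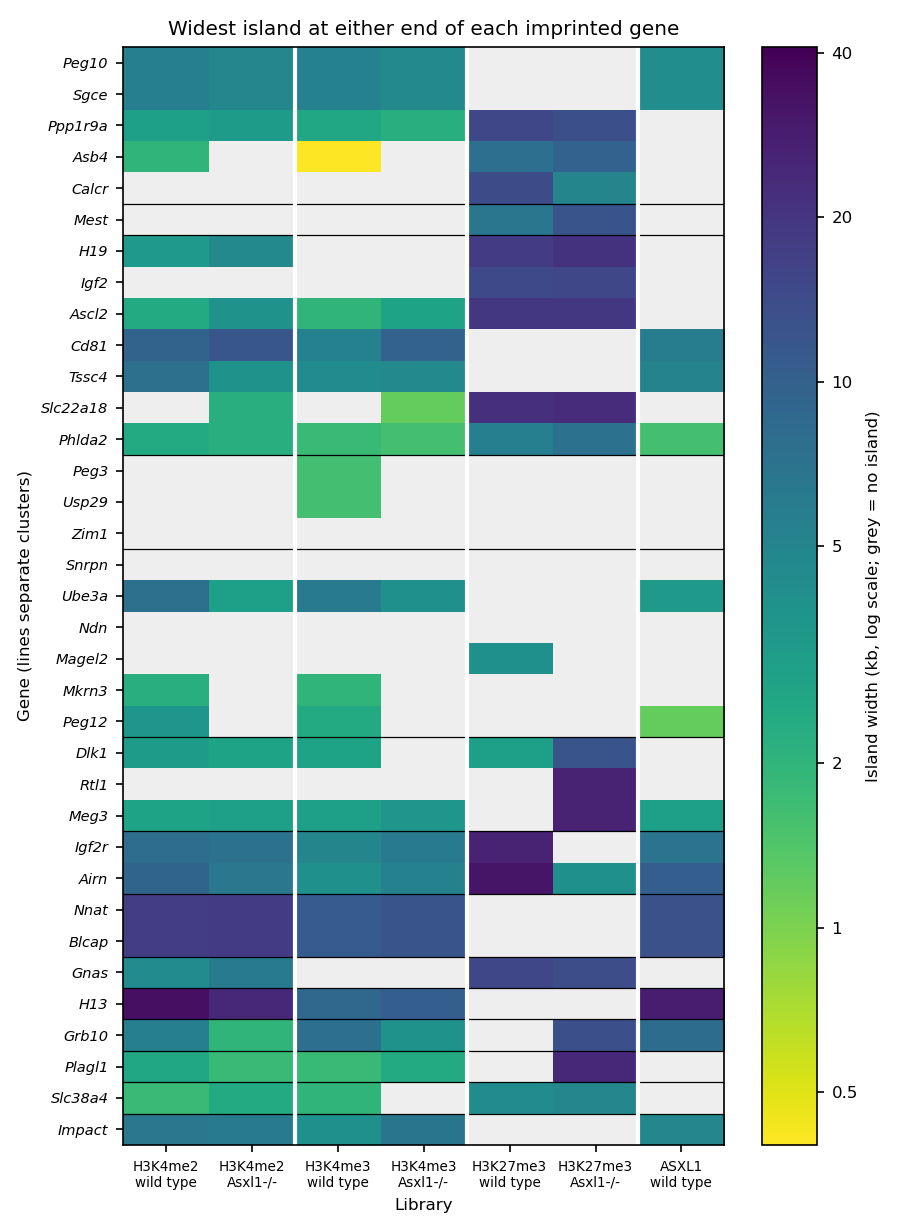
Width in kb, on a log colour scale, of the widest island within 1 kb of either end of each imprinted gene (rows, grouped by cluster) in each of the 7 libraries (columns), with grey for no island. H3K4me3 is present at 24 genes in wild type and at 18 in Asxl1-/-.

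H3K4me3 was lost at 7 imprinted genes: Peg3, Usp29, Mkrn3, Peg12, Dlk1, Slc38a4 and Asb4. That is 29.2% of the 24 marked in wild type (interval 12.6 to 51.1), against 4.19% of marked protein-coding genes and 6.52% of all marked genes on autosomes. Counted as islands, 6 of the 23 at the ends of these genes in wild type overlapped none of Asxl1-/- (26.1%), against 5.33% for protein-coding genes. The reverse change was at 1 gene, Slc22a18, of the 11 without H3K4me3 in wild type (9.09%, background 5.63%). H3K4me2 was lost at 3 of 24 genes, Mkrn3, Peg12 and Asb4 (12.5%, interval 2.66 to 32.4, background 2.98%), and gained at Slc22a18, 1 of 11 (background 8.44%). All 3 genes that lost H3K4me2 lost H3K4me3 too.

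Of the 7 genes that lost H3K4me3, 6 are known as paternally expressed, and Asb4 as maternally expressed. Among the 18 paternally expressed genes, H3K4me3 was at 12 in wild type and 6 in Asxl1-/-. Among the 14 maternally expressed ones it was at 10 in each genotype, with 1 lost and 1 gained. H3K4me2 was at 10 and 8 of the paternally expressed genes and at 11 and 11 of the maternally expressed ones. H3K27me3 was at 6 and 7 paternally expressed genes and at 8 and 9 maternally expressed ones. Over protein-coding genes on autosomes, H3K4me3 was at 59.8% in wild type and 59.6% in Asxl1-/-. The same background was 64.7 and 65.7% for H3K4me2, and 27.4 and 24.4% for H3K27me3. The counts by parental class take each gene as a unit, though some are not separate. Peg3 and Usp29 share the lost island, and Peg10 and Sgce share a kept one. Mkrn3 and Peg12 are neighbours in a region where H3K4me3 covered less in Asxl1-/-. The parental assignment is background knowledge and, for several genes, holds in some tissues only. The difference between the groups was not tested, since each genotype is 1 library.

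Lost H3K4me3 islands were narrow. They measured from 0.4 to 2.8 kb, with a median of 2.0 kb, while islands at the 17 genes that kept the mark had a median of 5.0 kb in wild type. Over protein-coding genes, those that lost the mark also had narrow islands, with a median of 1.8 kb against 4.6 kb for kept ones.

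**Figure D2:**
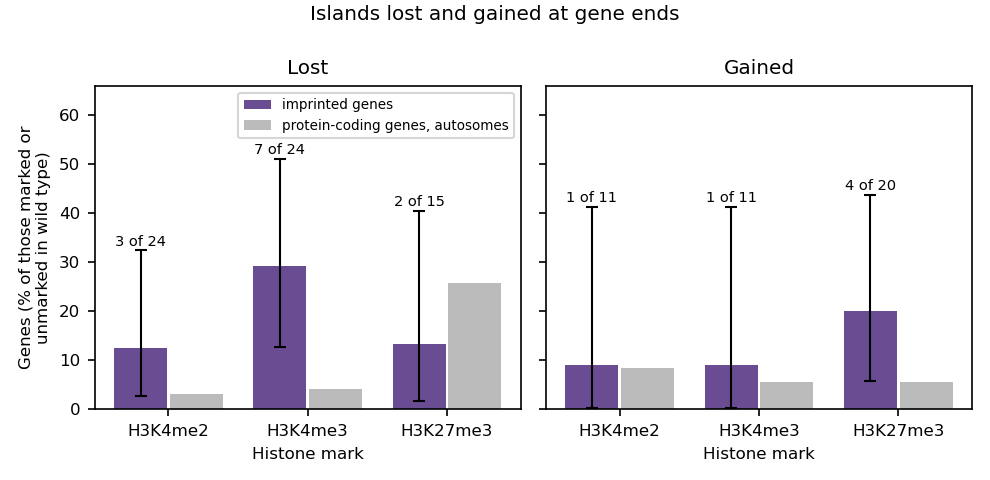
Percent of genes that lost (left, of those marked in wild type) or gained (right, of those not marked) each histone mark, for imprinted genes (purple, with 95% exact intervals for counting error and the counts above) and for protein-coding genes on autosomes (grey). The H3K4me3 losses stand at 29.2% against 4.19%, and the H3K27me3 gains at 20.0% against 5.6%.

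The sequences in front of 6 of the 7 genes that lost H3K4me3 are shown to let a reader see their CpG, since CpG is the site of the methylation that sets imprints. Each is from RefSeq (GRCm38.p6, whose chromosome coordinates are those of mm10), reads 5′ to 3′ on the gene's strand, and has each CG in capitals. Mkrn3 is the minus strand of chr7:62420154-62420403, with 10 CG in 250 bases. Peg12 is the minus strand of chr7:62464511-62464760, with 8, and its wild-type H3K4me3 island ended inside this stretch, at 62464599. Dlk1 is the plus strand of chr12:109452573-109452822, with 8. Its wild-type H3K4me3 island began at 109452800, so it covered only the last bases of this stretch. Slc38a4 is the minus strand of chr15:97055957-97056206, with 3, and its wild-type island ended at 97055799, short of this stretch. Asb4, whose island was the narrowest, is not shown, and the window around its start held 6 CG. The last line is the plus strand between the Peg3 and Usp29 genes, which point away from each other, chr7:6730463-6730558, with 3 in 96 bases. The wild-type island there ended at 6730399, also short of the stretch. Counts from stretches of unlike length cannot be compared. In the same window as for Asb4, the start of Peg3 held 13 CG and that of Usp29 17. Mkrn3 held 15 in it, Peg12 12, Dlk1 9 and Slc38a4 5.
Mkrn3: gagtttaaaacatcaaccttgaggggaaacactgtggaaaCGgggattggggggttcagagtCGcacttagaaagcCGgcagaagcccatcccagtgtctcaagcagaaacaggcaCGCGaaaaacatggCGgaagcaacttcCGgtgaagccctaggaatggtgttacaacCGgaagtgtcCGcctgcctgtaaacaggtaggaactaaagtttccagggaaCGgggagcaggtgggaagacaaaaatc
Peg12: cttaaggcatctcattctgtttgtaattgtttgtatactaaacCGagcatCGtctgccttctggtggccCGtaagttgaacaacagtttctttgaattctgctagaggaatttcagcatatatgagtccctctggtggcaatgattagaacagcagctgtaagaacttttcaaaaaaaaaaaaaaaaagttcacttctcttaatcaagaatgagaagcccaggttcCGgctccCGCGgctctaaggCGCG
Dlk1: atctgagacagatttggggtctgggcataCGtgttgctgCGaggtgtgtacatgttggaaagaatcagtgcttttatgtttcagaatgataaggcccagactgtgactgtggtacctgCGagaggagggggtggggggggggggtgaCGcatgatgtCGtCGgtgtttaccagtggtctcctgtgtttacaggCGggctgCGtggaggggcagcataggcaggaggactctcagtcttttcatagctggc
Slc38a4: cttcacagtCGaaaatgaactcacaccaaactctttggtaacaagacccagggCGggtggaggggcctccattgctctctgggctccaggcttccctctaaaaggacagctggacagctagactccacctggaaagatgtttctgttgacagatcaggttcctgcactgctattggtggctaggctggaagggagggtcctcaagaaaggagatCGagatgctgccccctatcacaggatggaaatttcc
Peg3-Usp29: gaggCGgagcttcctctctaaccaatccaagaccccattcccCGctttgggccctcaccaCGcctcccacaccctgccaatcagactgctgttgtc

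The region of chromosome 7 that holds Snrpn, Ube3a, Ndn, Magel2, Mkrn3 and Peg12 lost most of its islands in Asxl1-/-. Its human counterpart is the region of the Prader-Willi and Angelman syndromes. From the start of Ube3a to the end of Peg12, 59228750 to 62464510, H3K4me3 covered 12.8 kb in 6 islands in wild type and 2.65 kb in 1 island in Asxl1-/-. H3K4me2 covered 12.4 kb in 4 islands and 2.05 kb in 1. The island left in Asxl1-/- was in both cases the one at Ube3a.

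Mkrn3, a ubiquitin ligase gene known for restraining the onset of puberty, had an H3K4me3 island of 2.0 kb and an H3K4me2 island of 2.2 kb in wild type. Asxl1-/- had neither, and no base of either was covered there. Peg12, a relative of the Wnt pathway gene Frat1, had H3K4me3 over 2.4 kb and H3K4me2 over 3.6 kb in wild type and no island in Asxl1-/-. These islands took in 87.5% and 100% of the Peg12 gene. Peg12 was the 1 gene among the 7 with an ASXL1 island at a gene end, of 1.2 kb. Magel2, a regulator of protein recycling, had an H3K27me3 island of 4.0 kb in wild type and none in Asxl1-/-. Ndn, its neighbour, had no island of any library over the gene or within 1 kb.

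Snrpn, a splicing factor gene, was empty at both gene ends, but it has 4 annotated starts over 468 kb. At the start at 60005199 wild type had an H3K4me3 island of 1.8 kb and Asxl1-/- had none. A further pair of wild-type islands inside the gene, 1.2 kb of H3K4me3 and 1.0 kb of H3K4me2, overlapped an ASXL1 island of 0.8 kb and were also absent. So the rule on gene ends misses a loss at Snrpn. The 250 bases before the start at 60005199, minus strand of chr7:60005200-60005449, hold only 3 CG.
Snrpn: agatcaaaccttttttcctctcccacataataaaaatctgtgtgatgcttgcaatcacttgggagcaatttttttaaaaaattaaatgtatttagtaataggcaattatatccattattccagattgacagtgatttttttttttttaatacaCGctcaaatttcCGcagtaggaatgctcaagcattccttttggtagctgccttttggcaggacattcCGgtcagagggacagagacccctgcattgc

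Ube3a, the ubiquitin ligase gene of Angelman syndrome, is read from both copies outside neurons. It kept its islands, at 6.0 and 4.0 kb for H3K4me3 and 7.4 and 3.0 kb for H3K4me2 in wild type and Asxl1-/-, with an ASXL1 island of 3.4 kb. Covered length was lower across this part of the chromosome: within 5 Mb of Mkrn3 the ratio of Asxl1-/- over wild type was 0.743 for H3K4me3, 0.717 for H3K4me2 and 1.08 for H3K27me3. On all of chromosome 7 it was 1.01, 0.884 and 0.736. The part of this regional difference in the losses was not tested.

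**Figure D3:**
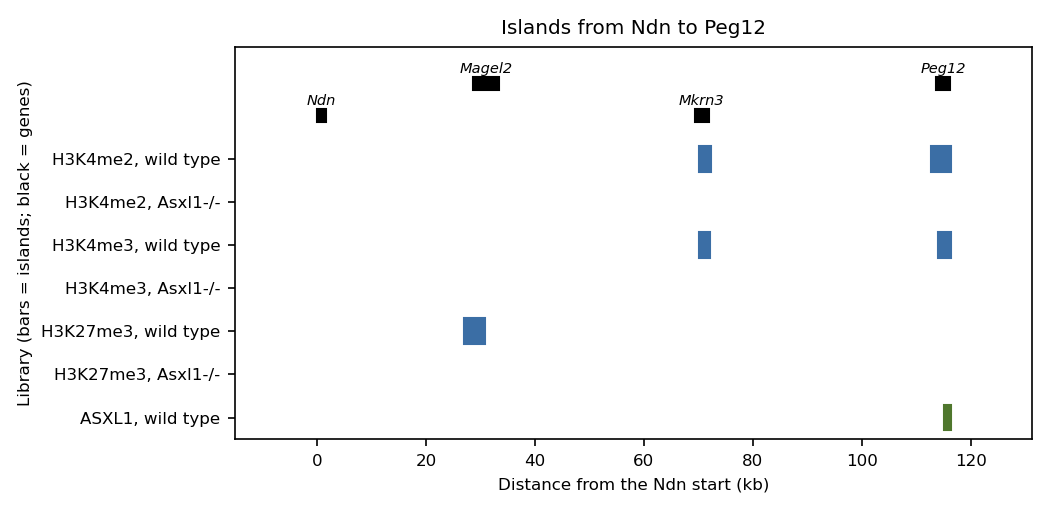
Islands (bars) of the 7 libraries from Ndn to Peg12, plotted by distance in kb from the Ndn start, with wild type in blue, Asxl1-/- in red, ASXL1 in green and genes in black. The islands at Magel2, Mkrn3 and Peg12 are in wild type and no island is drawn for Asxl1-/-.

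At the Peg3 cluster, near the other end of chromosome 7, a single island was at issue. Peg3, a zinc finger gene of growth control, and Usp29, a deubiquitinase gene, start on either side of 96 bases and share it. H3K4me3 covered 1.6 kb there in wild type and nothing in Asxl1-/-. No H3K4me2, H3K27me3 or ASXL1 island was within 1 kb of either gene's ends. Zim1 had none of the marks. Within 5 Mb of Peg3 the H3K4me3 ratio was 1.04.

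The Dlk1-Meg3 cluster on chromosome 12 was largely covered by H3K27me3 in Asxl1-/- and not in wild type. From the start of Dlk1 to the end of Rtl1, 109452485 to 109604418 (152 kb), H3K27me3 covered 15.8 kb in 2 islands in wild type and 124 kb in 7 islands in Asxl1-/-. H3K27me3 was also more extensive around it, at 1.83 times the wild-type length within 5 Mb of Dlk1 and 1.87 times on the chromosome. The part of that wider change was not tested.

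Dlk1, a transmembrane protein that restrains the formation of fat cells, lost an H3K4me3 island of 2.8 kb. It kept H3K4me2, at 3.2 kb (wild type) and 2.8 kb (Asxl1-/-). H3K27me3 at its start was 3.0 kb in wild type, all of it covered in Asxl1-/-, where the island was 4.8 kb. A further H3K27me3 island of 12.4 kb at the far end was in Asxl1-/- alone. The share of the Dlk1 gene under H3K27me3 was 27.6% in wild type and 92.6% in Asxl1-/-. So the start of Dlk1 had all 3 marks in wild type, and H3K4me2 with H3K27me3 in Asxl1-/-.

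Meg3, a maternally expressed long non-coding RNA, kept its H3K4 methylation. H3K4me3 was 3.0 kb (wild type) and 3.6 kb (Asxl1-/-) and H3K4me2 was 2.8 and 3.0 kb, with an ASXL1 island of 3.0 kb. H3K27me3 covered none of Meg3 in wild type and 57.0% in Asxl1-/-, but not its start. Rtl1, a gene derived from a retrotransposon and needed in the placenta, overlaps the end of Meg3. None of Rtl1 was under H3K27me3 in wild type and 92.4% was in Asxl1-/-. The island of 26.4 kb at the far end of Meg3 is the one at the near end of Rtl1.

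**Figure D4:**
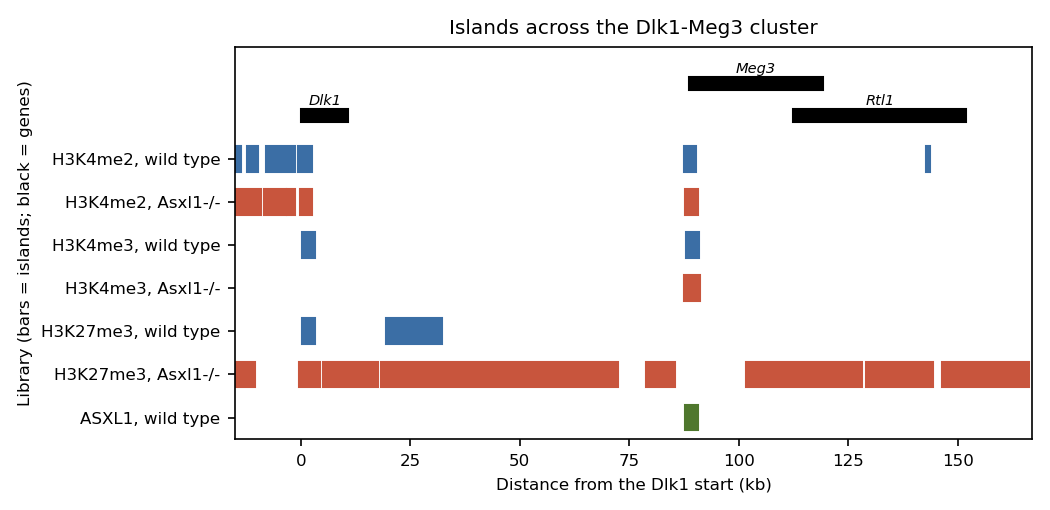
Islands (bars) of the 7 libraries across the Dlk1-Meg3 cluster, plotted by distance in kb from the Dlk1 start, with wild type in blue, Asxl1-/- in red, ASXL1 in green and genes in black. H3K27me3 covers 15.8 kb of the cluster (wild type) and 124 kb (Asxl1-/-), and leaves the Meg3 start free, while the H3K4me3 island at Dlk1 is in wild type only.

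The stretch annotated as Rtl1 also holds 15 miRNA hairpins, most of them on the plus strand that Meg3 is read from. All 15 lay under H3K27me3 islands in Asxl1-/- and 0 did in wild type. These were the islands of 26.4 and 15.2 kb over Rtl1, so the hairpins are not separate observations. At the pair that make miR-136 and miR-3071, wild type had an H3K4me2 island of 1.0 kb that Asxl1-/- lacked. Shown are 5 from the plus strand, chosen by name as miRNAs known to act on the Rtl1 transcript, to identify what the gained H3K27me3 lay over. The mature sequences are from RefSeq, with the seed, bases 2 to 8, in capitals. No seed is shared among these 5. Over all mature forms from the stretch, the 1 seed shared by more than 1 name was that of the miR-3070 3p pair.
miR-127-3p: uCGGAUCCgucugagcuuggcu
miR-136-5p: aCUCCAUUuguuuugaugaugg
miR-431-5p: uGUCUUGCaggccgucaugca
miR-433-3p: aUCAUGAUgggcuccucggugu
miR-434-3p: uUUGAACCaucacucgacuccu

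At the far end of chromosome 7, the H19, Igf2 and Kcnq1 domains had wide H3K27me3 in both genotypes, and less of it in Asxl1-/-. From H19 to Phlda2, 142575530 to 143503145, it covered 521 kb (wild type) and 417 kb (Asxl1-/-). H19, a maternally expressed non-coding RNA, lay wholly under H3K27me3, in islands of 18.0 and 20.8 kb. It had no H3K4me3 in either genotype, and H3K4me2 at its higher end over 3.4 and 4.6 kb. Its miRNA, miR-675, was under H3K4me2 in Asxl1-/- alone.

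Igf2, the paternally expressed growth factor, lay almost wholly under H3K27me3, in a wide island of 14.8 kb (wild type) and 15.2 kb (Asxl1-/-). No H3K4 methylation was at its ends, but inside the gene Asxl1-/- had islands that overlapped none of wild type. They were 3.6 and 1.2 kb of H3K4me2 and 1.4 kb of H3K4me3, and the 3.6 kb island covered 2 of its 4 annotated starts. So Igf2 gained H3K4 methylation at internal starts that the rule on gene ends does not count.

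Slc22a18, a transporter gene, gained 1.2 kb of H3K4me3 and 2.2 kb of H3K4me2 at its start, overlapping H3K27me3 islands of 21.6 kb (wild type) and 22.8 kb (Asxl1-/-). The share of Slc22a18 under H3K27me3 went from 92.4% to 40.6%. Phlda2, which limits growth of the placenta, kept all marks, with H3K4me3 over 1.8 and 1.6 kb and H3K27me3 over 5.6 and 7.2 kb. Ascl2, a regulator of placental precursors, likewise kept H3K4me3 (2.0 and 2.8 kb) within H3K27me3 of 19.4 and 19.2 kb. Cd81, a tetraspanin gene, and Tssc4 share the island between them and had no H3K27me3. Cd81 had 5.4 and 9.6 kb of H3K4me3 at its start, and Tssc4 4.4 and 4.6 kb. Both had ASXL1.

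On chromosome 6, Peg10, a retrotransposon-derived gene, and Sgce, which codes for epsilon-sarcoglycan, start beside each other and share 1 island of each mark. H3K4me3 was 5.4 kb (wild type) and 4.6 kb (Asxl1-/-), and H3K4me2 was 5.6 and 4.8 kb, with ASXL1 over 4.2 kb and no H3K27me3. This shared start was therefore close to the same in both genotypes.

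The other genes of the Peg10 cluster had H3K27me3. Ppp1r9a, the gene of the actin-binding protein neurabin, had H3K4me3 of 2.6 and 2.2 kb within H3K27me3 of 15.4 and 12.0 kb at its start. Asxl1-/- alone had a further 13.2 kb of H3K27me3 at its far end, and the covered share of the gene went from 10.9% to 35.6%. Asb4 lost an H3K4me3 island of 0.4 kb, the narrowest of all, and an H3K4me2 island of 2.0 kb, while H3K27me3 there was 7.6 and 9.6 kb. Calcr, the calcitonin receptor gene, had H3K27me3 alone, 14.2 kb (wild type) and 5.0 kb (Asxl1-/-).

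Mest, a paternally expressed gene of growth and of fat tissue, had only H3K27me3 at its gene ends, 6.6 kb (wild type) and 12.4 kb (Asxl1-/-). Its main start lies further in, at 30738050. H3K4me3 was there over 2.4 and 2.6 kb and H3K4me2 over 3.6 and 4.0 kb. H3K27me3 covered the same start, in an island of 4.4 kb in wild type and the one of 12.4 kb in Asxl1-/-. Both kinds of mark were thus together at the main Mest start in both genotypes.

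Igf2r, the receptor that clears IGF2, and Airn, the non-coding RNA that runs against it and keeps the paternal Igf2r copy silent, both kept H3K4 methylation at their starts. H3K4me3 at Igf2r was 5.0 and 6.0 kb, and at Airn 4.0 and 5.4 kb. ASXL1 lay at both starts, over 7.0 and 10.2 kb. H3K27me3 lay away from the starts. At the far end of Igf2r no base of a wild-type island of 26.0 kb was covered in Asxl1-/-. At the far end of Airn the wild-type island of 31.8 kb was split in Asxl1-/-, where 25.4 kb of it (79.9%) was covered. The share of Airn under H3K27me3 was 19.6% in wild type and 16.7% in Asxl1-/-. Within 5 Mb of Igf2r the H3K27me3 ratio was 0.776.

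Grb10, an adaptor that dampens insulin signalling, gained H3K27me3 where its active marks narrowed. At its start on chromosome 11, H3K4me3 was 7.6 kb (wild type) and 3.8 kb (Asxl1-/-). The H3K4me2 island over the start was 3.0 and 1.4 kb, and the one just inside the gene 5.6 and 2.0 kb. An H3K27me3 island of 13.2 kb, from 12030600 to 12043799, was in Asxl1-/- alone and lay over the whole of an 8.0 kb ASXL1 island of wild type. H3K27me3 covered none of Grb10 in wild type and 26.2% in Asxl1-/-. Within 5 Mb of Grb10 the H3K27me3 ratio was 4.22, and its part in this gain was not tested.

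Plagl1, a zinc finger gene at the head of a network of imprinted growth genes, kept H3K4me3 at its start, at 1.8 and 2.4 kb. Its far end gained H3K27me3, in an island of 24.0 kb. Wild type had 9.0 kb of this stretch covered, all beyond the gene. The covered share of Plagl1 went from 0% to 62.9%, and within 5 Mb the H3K27me3 ratio was 2.09. Slc38a4, an amino acid transporter gene, lost an H3K4me3 island of 2.0 kb just inside its start, and its 5.8 kb ASXL1 island lay further in the gene. It kept H3K4me2 near the start, at 1.8 and 2.4 kb, and H3K27me3, at 4.4 and 4.8 kb.

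Gnas, which codes for the alpha subunit of the stimulatory G protein, has several promoters. At the farthest upstream start both genotypes had H3K27me3, over 15.2 and 13.8 kb, with H3K4me2 over 4.4 and 4.0 kb and no H3K4me3. At the 3 starts further down H3K4me3 was 11.4 kb (wild type) and 11.8 kb (Asxl1-/-), with ASXL1 over 11.2 kb. A wild-type H3K27me3 island of 3.2 kb at the upper 2 of these 3 was absent in Asxl1-/-. The covered share of Gnas under H3K27me3 went from 43.7% to 22.9%.

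Nnat, a small membrane protein gene, lies inside Blcap, and a single H3K4me2 island covered both genes, over 17.8 and 18.0 kb. H3K4me3 in wild type was an island of 10.6 kb and, at the lower end of Blcap, another of 2.0 kb. In Asxl1-/- it was 1 island of 12.4 kb. H3K27me3 was absent in both genotypes. H13, the signal peptide peptidase gene, had the widest H3K4me2 of all 35, 33.8 kb (wild type) and 24.0 kb (Asxl1-/-), and the widest ASXL1 island, 28.8 kb. Its H3K4me3 was 8.8 and 10.2 kb. Impact, a regulator of translation under stress, had H3K4me3 over 4.0 and 6.8 kb, ASXL1 over 4.8 kb and no H3K27me3. No mark was lost or gained at these 4 genes.

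H3K27me3 was gained at Grb10, Meg3, Plagl1 and Rtl1, 4 of the 20 imprinted genes without it in wild type (20.0%, interval 5.73 to 43.7), against 5.6% of protein-coding and 6.27% of all genes. It was lost at Igf2r and Magel2, 2 of 15 (13.3%, interval 1.66 to 40.5, background 25.8%). Counted as islands, 5 of the 20 H3K27me3 islands at the ends of the 35 genes in Asxl1-/- overlapped none of wild type. That is 25.0%, against 16.1% for protein-coding genes, a smaller contrast than by gene. Of the 4 gains, Meg3 and Rtl1 share an island, and 2 are left without the Dlk1-Meg3 cluster. Rtl1 gained the mark at both gene ends, and has no listed start. With the start alone as the place of the mark, in the 30 genes with a listed start, 1 gene, Grb10, gained H3K27me3 and 1, Magel2, lost it. All 4 gains were on chromosomes 10, 11 and 12, where the H3K27me3 ratio was 2.09, 1.5 and 1.87. On those chromosomes 12.5, 10.0 and 10.2% of unmarked protein-coding genes gained it.

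H3K4me3 and H3K27me3 met at the same gene end about as often as over protein-coding genes. The pair was at 6 of 35 in wild type (17.1%, background 12.4%): Ppp1r9a, Asb4, Ascl2, Phlda2, Dlk1 and Slc38a4. In Asxl1-/- the pair was at 5 (14.3%, background 9.71%): Ppp1r9a, Ascl2, Phlda2, Slc22a18 and Grb10. The 3 in both genotypes were Ppp1r9a, Ascl2 and Phlda2. They are 8.57% of the 35, background 7.23%, and 3 of the 6 in wild type (interval 11.8 to 88.2), where 58.3% of such protein-coding genes kept the pair. Asb4, Dlk1 and Slc38a4 left it by losing H3K4me3 with H3K27me3 kept. Slc22a18 entered by gaining H3K4me3, and Grb10 by gaining H3K27me3.

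H3K4me2 with H3K27me3 was at 8 genes in wild type (22.9%, background 15.3%) and 9 in Asxl1-/- (25.7%, background 13.8%), with 7 in both (20.0%, background 10.5%). So 7 of 8 kept it (87.5%, interval 47.3 to 99.7, background 68.6%). Asb4 left it, and Slc22a18 and Grb10 entered it. Gnas and H19 had it in both genotypes without H3K4me3. At the 48 annotated starts of the 30 genes that have them, some only bases apart, H3K4me3 with H3K27me3 was at 10 in wild type and 9 in Asxl1-/- (20.8 and 18.8%), against 7.34 and 5.64% of all 32619 starts. The starts inside Mest and Gnas were among those in wild type, and those inside Mest and Igf2 among those in Asxl1-/-. In wild type Mest, Gnas and Ppp1r9a each had more than 1 such start. The background of all starts takes in non-coding genes and the X chromosome, unlike that at gene ends. At gene ends the wild-type share with H3K4me3 and H3K27me3 was 12.4% of protein-coding genes but 7.12% of all genes on autosomes.

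At the ends of these 35 genes ASXL1 was found only where H3K4me3 was. It was at 15 of the 24 genes with H3K4me3 in wild type (62.5%, background 83.1%), each time at the same end (background 82.7%), and at 0 of the 11 without (0%, background 4.04%). H3K4me3 was lost at 1 of the 15 with ASXL1 (6.67%, interval 0.169 to 31.9, background 1.45%). It was lost at 6 of the 9 without (66.7%, interval 29.9 to 92.5, background 17.7%). The split by ASXL1 was made after the values had been seen. These 9 had narrow islands, of 0.4 to 2.8 kb, and the parts of width and ASXL1 cannot be told apart in them. The split covers gene ends only. Inside Slc38a4, Igf2r, H13 and Ppp1r9a, wild-type H3K4me3 islands that lay wholly under ASXL1 were absent in Asxl1-/-. Other such islands, as in Gnas and H13, were kept. Of the 17 genes that kept H3K4me3, 14 had ASXL1 at an end, as did 10134 of the 11850 protein-coding genes that kept it. Among the 17 the island was wider in Asxl1-/- at 11 and narrower at 6, with a median ratio of 1.17, against 1.12 over protein-coding genes.

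**Figure D5:**
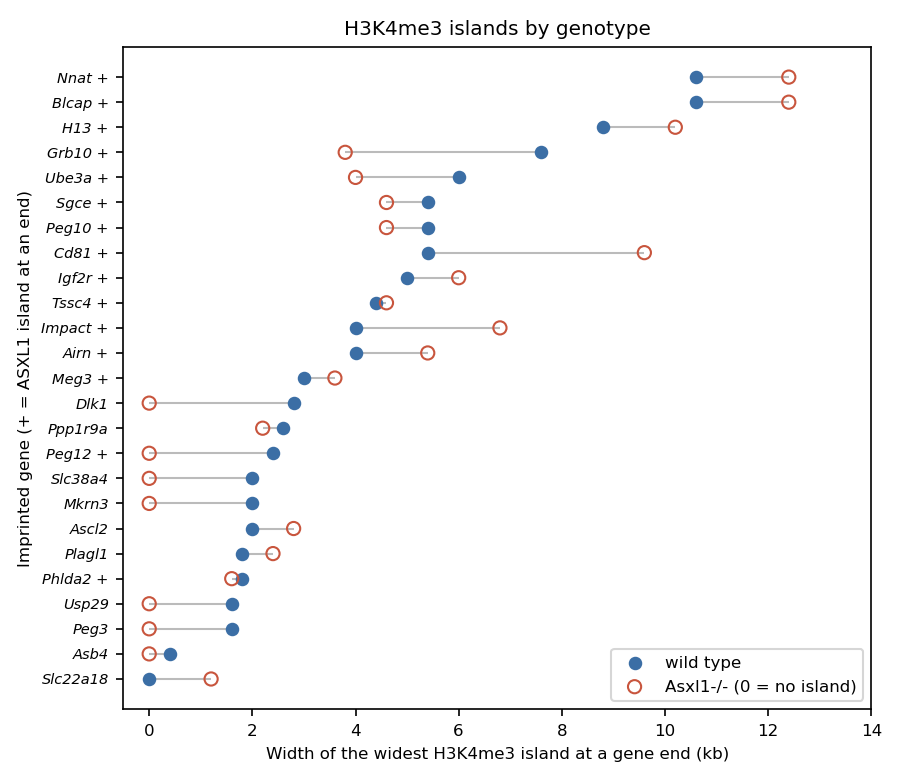
Width in kb of the widest H3K4me3 island at a gene end in wild type (filled blue) and Asxl1-/- (open red, 0 where there is none) for the 25 imprinted genes with an island in either genotype, ordered by wild-type width. A plus marks genes with an ASXL1 island at a gene end, which 14 of the 17 genes that kept H3K4me3 have and 1 of the 7 that lost it.

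Starts can lie inside a gene, so islands were also read at each annotated start. The background here is all 32619 listed starts, of 26794 genes. Unlike the background at gene ends, it takes in non-coding genes and the X chromosome. H3K4me3 was over 27 of the 48 starts in wild type and 22 in Asxl1-/- (56.2 and 45.8%), against 43.7 and 43.2% of all starts. H3K27me3 was over 22 and 20 (45.8 and 41.7%), against 20.7 and 19.8%, and ASXL1 over 15 (31.2%), against 38.5%. The starts of the imprinted genes also held more CG than this background. In windows from 250 bases before to 50 after each annotated start, the median was 13.5 CG at the 48 starts and 7 at all 32619. The letters TGCCGC, the core of the site that the imprint keeper ZFP57 binds when methylated, were searched on both strands. At least 1 copy was in 10 of 48 (20.8%) and in 11.7% of all, and at least 2 copies were in 3 (6.25%) and 1.54%. The 3 with 2 copies were 2 starts of Mest that lie 3 bases apart and 1 of Calcr. A match is a description of the sequence and not of binding.

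A further list of 42 imprinted genes outside the 35 was also read, of which 40 were in the gene table. H3K4me3 was lost at Kcnq1ot1 and Gatm, 2 of the 18 with it in wild type (11.1%, background 4.19%), and gained at Zrsr1, Sfmbt2 and Cdkn1c, 3 of 22 (13.6%, background 5.63%). At Kcnq1ot1, the paternally expressed non-coding RNA that silences the Kcnq1 domain, wild type had 4.0 kb of H3K4me3, 4.6 kb of H3K4me2, 4.0 kb of H3K27me3 and 4.0 kb of ASXL1, and Asxl1-/- had none of the marks. Zrsr1, a paternally expressed splicing gene inside Commd1, gained 8.2 kb of H3K4me3 and, with Commd1, 12.8 kb of H3K4me2. Sfmbt2 gained 5.4 kb of H3K4me3, Cdkn1c 2.0 kb, and Gatm lost 1.0 kb. H3K27me3 was lost at 3 of 20 (15.0%, background 25.8%) and gained at 3 of 20 (15.0%, background 5.6%). All of these gains lay on chromosomes 11 and 12. They include the 20.0 kb island that also lies at the far end of Rtl1, so they partly count the same loci as the 35.

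Of 19 listed genes that set or keep imprints, 13 had H3K4me3 in both genotypes. With 0 of 13 lost (background 4.19%) and 0 of 6 gained (background 5.63%), the list was near the background. Ctcfl, a relative of the insulator protein CTCF, gained 3.0 kb of H3K4me2. Tet3, which oxidises methylated cytosine, lost an H3K27me3 island of 11.4 kb, 1 of 6 (background 25.8%).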

How the data were processed

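Each of the 7 libraries used here was deposited by the authors as a list of islands, with chromosome, start and end and no read count or score, so depth is unknown. Per the submitters' processing notes, reads were treated with BWA and SICER 1.1 on mm10. The sources used here give neither settings nor a control. The input was not analysed here. Islands start on a grid of 200 bp, and coordinates are printed as deposited.

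With Python 3.11.15 and pandas 2.3.3, each island was matched to genes of the RefSeq table (GRCm38.p6) by a window of 1000 bp around each gene end, by covered bases of the gene, and by windows from 250 bases before to 50 after each annotated start. Backgrounds are the same shares over all protein-coding genes on the 19 autosomes. At starts they are over all listed starts on autosomes and the X chromosome, coding or not. With 1 library per group no test was possible. Intervals are exact Clopper-Pearson intervals at 95%. As a check of the code, the wild-type islands of each mark at 200 randomly picked protein-coding genes were removed. All 200 were then called lost, which follows by construction. All 35 genes were named, since the list is the rule, and of the further lists up to 6 genes that changed. The members and lists were chosen with earlier results of these data known. Alternatives were other windows, island widths of at least 1000 bp, lists of equal length, the start alone, and leaving out ends within 2000 bp of another gene. The splits by ASXL1, by distinct island and without the Dlk1-Meg3 cluster were added after seeing the data. A split by island width was also tried then and is not reported, since the losses set its threshold.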

Additional observations from a re-analysis of the deposited data

How the results depend on the processing

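Of 140 alternative values over 27 results, 131 stayed close to the main value by a fixed fold limit, and 9 moved. A change of direction was not scored. The total takes in median covered shares of gene bodies, which are not given above. It also takes in the counts from the splits made after seeing the data. Those by ASXL1 and by island width count subsets, so they are no test of the result. A close count can hold other genes. With a window of 2500 bp, 0 genes gained H3K4me3, and Igf2 in place of Slc22a18 gained H3K4me2. With 500 bp, Airn joined the H3K27me3 losses. With the start alone, 1 gene lost and 1 gained H3K27me3, and the mark was at 12 genes in each genotype. Without ends near another gene, H3K4me3 was at 15 genes in wild type and 11 in Asxl1-/-, H3K4me2 at 14 in Asxl1-/-, and 10 genes kept H3K4me3 and 13 H3K4me2. There the H3K27me3 gains were Grb10, Plagl1 and Ppp1r9a, without Meg3 and Rtl1. Fewer genes are counted there by construction. Without the Dlk1-Meg3 cluster, 2 genes gained H3K27me3. For the other moves the cause was not tested. The number of genes that lost H3K4me3 lay between 5 and 7. It was 6, without Asb4, with islands of at least 1000 bp or lists of equal length, and 5, without Peg3 and Usp29, without ends near another gene. Depth is unknown, so a missing island does not show that a mark is absent. No paired analysis was possible because each group is 1 library.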
